A study of Mus musculus with 6 samples.

Results

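Chemokines are small secreted proteins that direct the movement of leukocytes. The genes described here are 9 CC chemokine genes (Ccl2, Ccl3, Ccl4, Ccl5, Ccl6, Ccl7, Ccl8, Ccl9 and Ccl12) and 1 XC chemokine gene (Xcl1). They were chosen by symbol, and all 10 were found among the 28208 genes that the 6 count matrices share. Each was measured by single-cell RNA sequencing of whole dissociated mouse kidneys, as unique molecular identifiers (UMIs), each of which stands for 1 captured transcript.

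The groups were naive, rejecting and tolerized kidneys, with 2 kidneys in each, all labelled male. Naive kidneys came from untransplanted C57BL/6 (B6) mice aged 10-12 weeks. Rejecting kidneys came from BALB/c donors aged 6-7 weeks, were placed into B6 male recipients whose own kidneys had both been removed, and were taken on day 15. Donors of either sex were used for such transplants, so the label can be that of the recipient. Tolerized kidneys were the same transplants in recipients that were also infused intravenously with BALB/c splenocytes treated with the cross-linker ethylenecarbodiimide (ECDI). Both transplanted groups therefore share the BALB/c to B6 transplant itself, and a graft holds donor tissue as well as recipient leukocytes. Strain, age, transplantation and the software that made the matrices all differ between naive kidneys and grafts. Cell barcodes, given below, were also shared less between naive kidneys and grafts than within either. Whether the libraries of both were made alike was not tested. The parts of all these in a difference from naive kidneys cannot be told apart.

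CC chemokines bind G protein-coupled receptors named Ccr, and each receptor accepts several ligands. Ccl2, Ccl7 and Ccl12 are monocyte chemoattractant proteins that act on Ccr2 of monocytes. Ccl8 belongs to the same family and in the mouse also acts on Ccr8. Ccl3, Ccl4 and Ccl5 are inflammatory chemokines that attract effector T cells, natural killer (NK) cells and macrophages. Ccl6 and Ccl9 are rodent myeloid chemokines that act on Ccr1, and Xcl1 attracts Xcr1-bearing dendritic cells. In a transplanted kidney these proteins are known for drawing recipient monocytes and T cells into the graft.

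The CC genes lie on chromosome 11 in 2 groups (GRCm38 coordinates, GENCODE M21). The first holds Ccl2 (82035571 to 82037453), Ccl7 (82045712 to 82047525), Ccl12 (82101845 to 82103400) and Ccl8 (82115185 to 82116799), all on the forward strand. The second holds Ccl5 (83525778 to 83530518), Ccl9 (83572919 to 83578636), Ccl6 (83587882 to 83593087) and Ccl3 (83647844 to 83649355) on the reverse strand, with Ccl4 (83662584 to 83664683) on the forward strand. Xcl1 lies on the reverse strand of chromosome 1 (164931644 to 164935527). Ccl12 and Ccl8 are separated by 11784 bases, and Ccl9 and Ccl6 by 9245 bases. An antisense gene, Gm20743, shares 98 exonic bases with Xcl1.

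Promoter windows from RefSeq were matched for 6 of the 10 genes. The 200 bases before the start site are shown for both close pairs of neighbours, because the members of the first pair differed in naive macrophages (Ccl12 detected, Ccl8 not) whereas those of the second pair were high in the same cells. All are from GRCm38.p6 and read 5′ to 3′ on the strand of the gene. Capitals mark the TATA box (TATAAA, gene strand) and the Ets core of PU.1-type sites (AGGAAG on either strand).
Ccl8, chr11:82114985-82115184, forward strand: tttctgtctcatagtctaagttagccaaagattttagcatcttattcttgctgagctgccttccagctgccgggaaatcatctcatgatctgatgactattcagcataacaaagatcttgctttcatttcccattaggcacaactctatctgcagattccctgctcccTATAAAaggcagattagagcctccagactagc
Ccl12, chr11:82101645-82101844, forward strand: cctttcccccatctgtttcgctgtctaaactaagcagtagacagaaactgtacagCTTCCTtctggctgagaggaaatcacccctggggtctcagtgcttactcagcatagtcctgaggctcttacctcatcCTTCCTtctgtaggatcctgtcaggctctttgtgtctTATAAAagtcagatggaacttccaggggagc
Ccl6, chr11:83593088-83593287, reverse strand: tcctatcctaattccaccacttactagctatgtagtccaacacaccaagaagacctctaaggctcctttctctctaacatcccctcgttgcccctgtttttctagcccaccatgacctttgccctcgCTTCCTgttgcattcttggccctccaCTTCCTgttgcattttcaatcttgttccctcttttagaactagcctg
Ccl9, chr11:83578637-83578836, reverse strand: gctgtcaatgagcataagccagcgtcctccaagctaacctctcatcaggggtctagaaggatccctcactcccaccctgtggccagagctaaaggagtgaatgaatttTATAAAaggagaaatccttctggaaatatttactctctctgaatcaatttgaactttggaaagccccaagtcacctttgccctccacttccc

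Aligned globally, the Ccl8 and Ccl12 windows were identical in 123 of 217 columns (56.7%), the highest share of the 15 pairs of windows, and the Ccl6 and Ccl9 windows in 106 of 230 (46.1%). A TATA box started at -32 from the start site before Ccl8, at -31 before Ccl12 and at -92 before Ccl9. The Ets core occurred at -145 and -68 before Ccl12 and at -73 and -47 before Ccl6, and was not found before Ccl8 or Ccl9. Of 32851 promoter windows of this length, 24.7% held that core on either strand and 6.27% the TATA box on the gene strand. The AP-1 letters TGANTCA (5.48% of windows, either strand) were found before Ccl9, at -53. The NF-kB motif (0.286%), the GAS letters TTCNNNGAA (5.49%) and the ISRE motif (2.27%), each on either strand, were found in none of the 6 windows. These matches describe letters only.

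Between 5608 and 10483 cells per kidney were kept, 45667 in all, with a median of 2542 to 7312 UMIs per cell and 34874702 to 96803926 UMIs per matrix. Cells were clustered without the chemokine genes and named from marker genes, so that "macrophage-like" and similar names stand for clusters that hold those markers. The classes compared were macrophage-like (307 to 1277 cells in a graft), macrophage/monocyte-like (146 to 522), monocyte-like (148 to 287), T cell-like (896 to 3300), NK cell-like (109 to 138), tubule-like (1736 to 4495) and endothelium-like (48 to 224). Naive kidneys held 22 and 34 macrophage-like cells, 33 and 40 T cell-like cells and 8 and 13 NK cell-like cells, so their leukocyte levels rest on few cells and were not tested. Of these macrophage-like cells, 20 and 33 lay in a cluster led by Nlrp1b, whereas most of those in grafts lay in a cluster led by Lyz1. The naive kidneys shared 111 cell barcodes with each other, and pairs of grafts shared 18 to 35. A naive kidney and a graft shared at most 4, so the barcode sets of the libraries may differ between naive kidneys and grafts, which was not tested. Levels are given as CPM, the UMIs of a gene per 1000000 UMIs of that class in that kidney, and group means as CPM after TMM scaling, which corrects for differences in composition between sums.

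Rejecting kidney 1 stood apart in the level of Ccl8 and Ccl5 in cell classes that are not their main source. For Ccl8, B cell-like cells of rejecting kidney 1 had 250.3 CPM, against 28.7 in rejecting kidney 2 and 18.9 and 4.97 in the tolerized kidneys. T cell-like cells had 273, 30.1, 13.9 and 8.28 in the same order. The summed level of 8 macrophage markers in T cell-like cells followed the same order (627, 127, 74.2 and 40.8 CPM), with all 8 detected in each graft. For Ccl5, B cell-like cells had 560, 72.6, 21.4 and 19.9 CPM. A level in a class that is not the main source is therefore given beside the level in B cell-like cells of the same kidney. These levels are in CPM, so their order can differ from that of UMIs per cell.

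**Figure D1:**
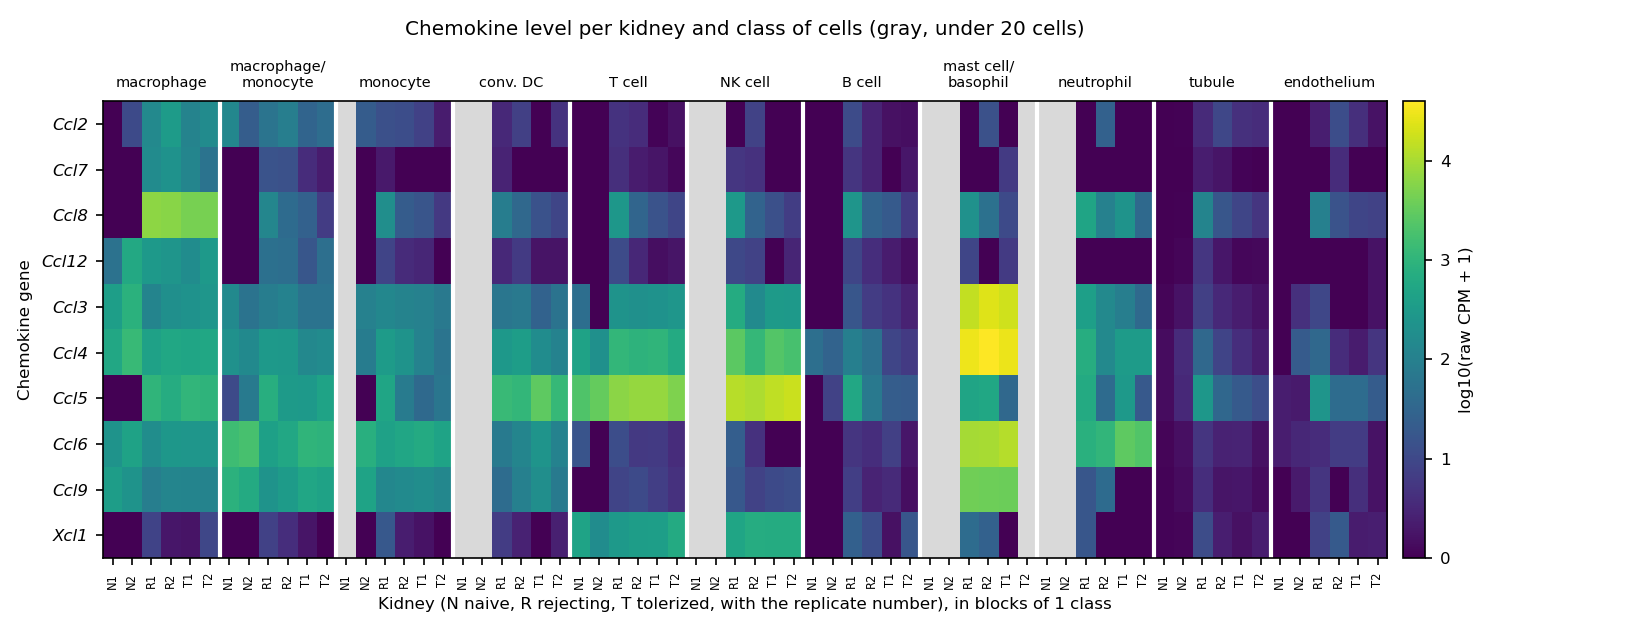
Level of the 10 chemokine genes, as log10(CPM + 1), by cell class (blocks) and kidney (columns within a block). Gray cells mark classes with under 20 cells in a kidney. Ccl8 is brightest in macrophage-like cells of the 4 grafts and Ccl5 in NK cell-like cells.

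Of the 10 genes, Ccl2, Ccl7, Ccl8, Ccl12, Ccl5 and Xcl1 had most of their UMIs in 1 class, the same in each of the 4 grafts. Of all Ccl8 UMIs of kept cells, 91.0% and 92.5% were in macrophage-like cells of the rejecting kidneys and 97.7% and 95.6% in those of the tolerized kidneys. Ccl7 followed with 92.6%, 90.7%, 97.7% and 93.3%, Ccl12 with 85.5%, 89.9%, 94.3% and 84.6%, and Ccl2 with 79.9%, 78.6%, 77.1% and 67.3%. Macrophage-like cells were thus the main source of the 4 monocyte chemoattractant genes in every graft.

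T cell-like cells held 61.9%, 78.1%, 69.0% and 60.7% of Ccl5 UMIs and 59.0%, 86.2%, 87.6% and 74.8% of Xcl1 UMIs. NK cell-like cells, few in number, held 4.19%, 4.42%, 6.79% and 21.9% of Ccl5 UMIs in the grafts, but 65.2% and 57.6% in naive kidneys. The largest parts of Ccl6 and Ccl9 were in macrophage-like cells (25.5% to 46.0% of Ccl6 UMIs) and macrophage/monocyte-like cells (26.8% to 41.7%). For Ccl3 and Ccl4 the UMIs were spread over macrophage-like cells, T cell-like cells and a small class of mast cell or basophil-like cells, which held 20.4% to 40.3% of Ccl3 UMIs with at most 41 cells in a graft. The class with the most Ccl3 UMIs was mast cell or basophil-like in rejecting kidney 1 and tolerized kidney 1, macrophage-like in rejecting kidney 2 and T cell-like in tolerized kidney 2. For Ccl6 and Ccl9 it was macrophage-like in both rejecting and macrophage/monocyte-like in both tolerized kidneys. Mast cell or basophil-like cells also held 1146, 779 and 2448 Ccl6 UMIs in rejecting kidneys 1 and 2 and tolerized kidney 1. In the same kidneys they held 487, 305 and 743 Ccl9 UMIs. All these shares and counts depend on how many cells of each class were captured.

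**Figure D2:**
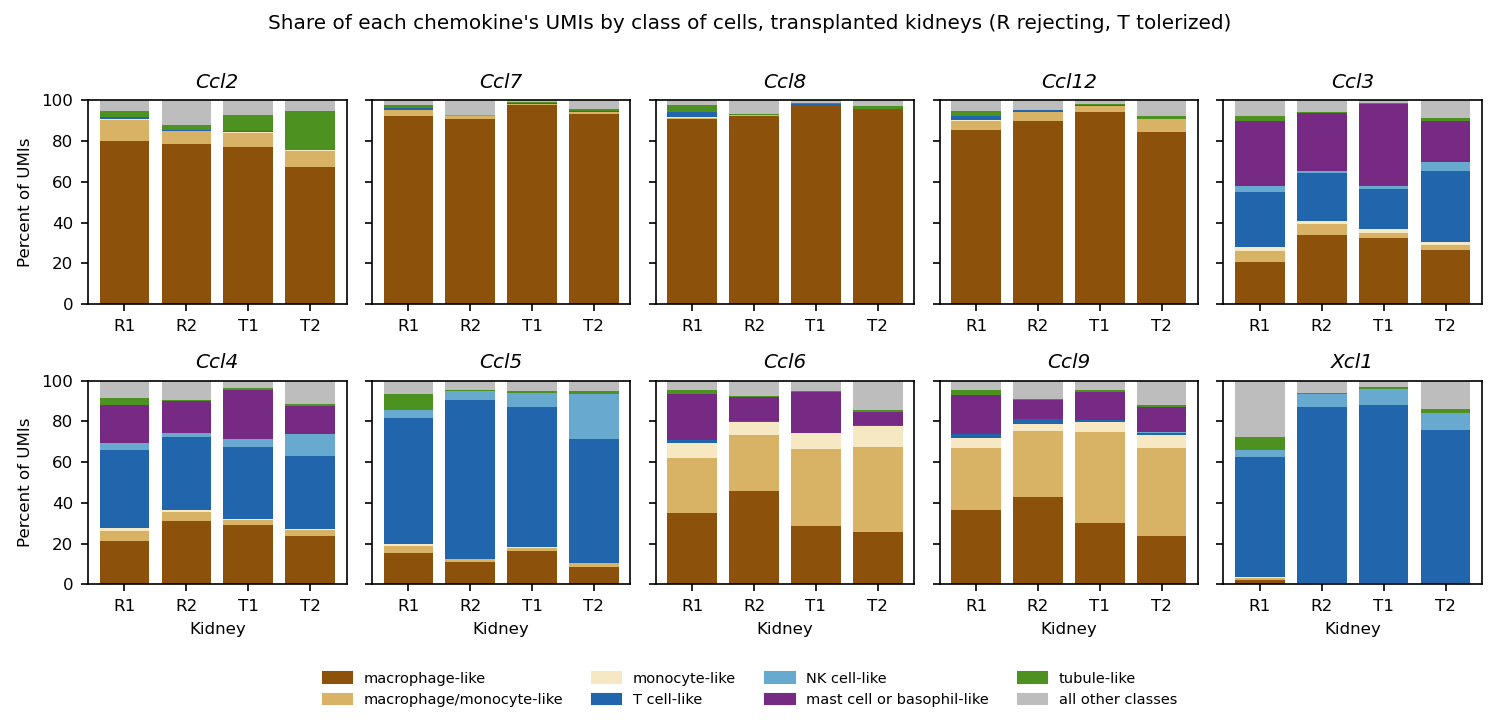
Percent of the UMIs of each chemokine that came from each cell class, in stacked bars for the 4 grafts. Macrophage-like cells hold 67.3% to 79.9% of Ccl2 UMIs and over 90% of Ccl8 and Ccl7 UMIs in each graft, whereas Ccl5 and Xcl1 UMIs are mostly in T cell-like cells.

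Ccl8 was absent from the counts of naive macrophages and abundant in those of grafts. No Ccl8 UMI was found in macrophage-like cells of either naive kidney (22 and 34 cells), whereas the level was 6646 CPM in rejecting kidney 1, 6026 in rejecting kidney 2, 4576 in tolerized kidney 1 and 4435 in tolerized kidney 2. Against the level that 3 UMIs over both naive kidneys would give (18.7 CPM), Ccl8 was at least 338.5-fold higher in rejecting and at least 243.4-fold higher in tolerized kidneys. The Nlrp1b-led cluster, which holds nearly all naive macrophage-like cells, also carried Ccl8 in grafts, at 3490, 5571, 2918 and 2320 CPM, and had no UMI in naive kidneys.

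Between the grafts, both tolerized kidneys lay below both rejecting kidneys for Ccl8 in macrophage-like cells. The means were 4635 ± 75.8 and 6176 ± 496 CPM (SD, n = 2 each), a log2 fold change of -0.41 with a standard error (SE) of 0.17. The change did not pass the threshold of 0.05 (edgeR quasi-likelihood test with Benjamini-Hochberg adjustment over all genes tested, adjusted p = 0.81; unadjusted p = 0.042). For this and later comparisons the share of all genes whose groups did not overlap is not given. The difference in level was accompanied by a difference in the share of cells that carried the transcript. After thinning each cell to 1000 UMIs, 70.9% and 65.4% of macrophage-like cells in rejecting kidneys held a Ccl8 UMI, and 58.2% and 54.0% in tolerized kidneys.

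Unthinned, these shares were 85.9%, 78.9%, 75.5% and 67.1%, at medians of 8590, 8590, 14580 and 11880 UMIs per cell. Thinning left out 75, 27, 48 and 11 cells. In B cell-like cells, which are not known to make Ccl8, the thinned shares were 20.3%, 3.57%, 1.81% and 1.80% and the unthinned ones 42.8%, 7.54%, 7.37% and 3.87%, at medians of 2182, 2131, 3703 and 4336 UMIs. The macrophage shares were above this background in every graft.

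Ccl7 showed the same order as Ccl8 with a wider gap. Its level in macrophage-like cells was 167 and 221 CPM in rejecting kidneys and 122 and 54.9 CPM in tolerized kidneys, and no Ccl7 UMI was found in any class of naive kidneys. The groups did not overlap, and tolerized kidneys differed by -1.05 on the log2 scale (SE 0.32; edgeR adjusted p = 0.66, unadjusted p = 0.012). Against the naive floor, Ccl7 in macrophage-like cells was at least 10.5-fold higher in rejecting and at least 5.79-fold higher in tolerized kidneys.

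Ccl2, the best known monocyte attractant, varied more between replicate kidneys. It measured 147 and 327 CPM in macrophage-like cells of rejecting kidneys and 111 and 164 CPM in tolerized kidneys, so the groups overlapped. The log2 fold change was -0.70 (SE 0.37; edgeR adjusted p = 0.89). Only 1 Ccl2 UMI was found in naive macrophage-like cells, which gives ratios to naive kidneys of 38.6 (95% counting interval 6.93 to 1526) and 19.6 (3.52 to 776.5) for rejecting and tolerized kidneys. Cycling macrophage/monocyte-like cells, analysed as a class of their own, had 103 and 349 CPM in rejecting kidneys.

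Ccl12 behaved differently from its neighbour Ccl8. It was already present in naive macrophage-like cells, with 3 UMIs (52.5 CPM) in naive kidney 1 and 61 UMIs (590.0 CPM) in naive kidney 2. Graft levels lay between these values, at 305 and 254 CPM in rejecting and 170 and 293 CPM in tolerized kidneys. In the Nlrp1b-led cluster alone, which holds nearly all naive macrophage-like cells, Ccl12 was at 61.2 and 643 CPM in naive kidneys. There it was at 160 and 147 CPM in rejecting and 59.3 and 46.7 CPM in tolerized kidneys, from 88, 51, 23 and 11 UMIs. The comparison with naive kidneys thus depends on the mix of clusters. With all cells, the pooled ratio to naive kidneys was 0.699 (95% counting interval 0.547 to 0.909) for rejecting and 0.491 (0.384 to 0.639) for tolerized kidneys. These intervals cover counting error only, not the gap between both naive kidneys. In naive kidney 2, 1 cell held 28 of the 61 UMIs. Without the cell of most UMIs in each kidney, naive levels were 36.3 and 326 CPM. Rejecting kidneys then had 297 and 246.5 CPM and tolerized kidneys 165 and 267 CPM, and the ratio was not recomputed. Tolerized and rejecting kidneys overlapped (log2 fold change -0.19, SE 0.28; edgeR adjusted p = 0.97). An unnamed cluster led by Gm49339, not counted among naive macrophage-like cells, held 83 Ccl12 UMIs (422 CPM) in 65 cells of naive kidney 2.

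Macrophage/monocyte-like cells, which express markers of both lineages and were led by Chil3, held members that leaned both ways. Of the 9 genes tested there, 7 had an unadjusted p under 0.05, 5 of them lower and 2 higher in tolerized kidneys, where 6.65% of all 9291 genes tested had such a p. None passed the adjusted threshold with edgeR (0% of all genes tested did), and 1, Ccl6, passed with DESeq2 (0.301% of all genes). The median log2 fold change of the 9 was -0.74, against 0.00 for all genes.

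The 2 genes that were higher were Ccl6 and Ccl9, both ligands of Ccr1. Ccl6 was at 406 and 583 CPM in rejecting and 1002 and 949 CPM in tolerized kidneys, with means of 480.5 ± 107 and 1009 ± 27.9 CPM (SD, n = 2 each). The log2 fold change was 1.07 (SE 0.23; edgeR adjusted p = 0.28; DESeq2 adjusted p = 0.0085; range over all alternatives 8.9e-04 to 0.50). The groups did not overlap. Ccl9 was at 233 and 330 CPM against 521 and 453 CPM, a log2 change of 0.88 (SE 0.22; edgeR adjusted p = 0.29). Naive cells of this class, 34 and 26 in number, had 1458 and 1829 CPM of Ccl6 and 912 and 642 CPM of Ccl9, above all 4 grafts.

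The 5 genes that were lower in tolerized kidneys were Ccl7, Ccl8, Ccl2, Ccl3 and Ccl4. Ccl7 had 46 and 40 UMIs (13.8 and 13 CPM) in rejecting and 13 and 2 UMIs (2.77 and 1.24 CPM) in tolerized kidneys, a log2 change of -2.47 (SE 0.42; edgeR adjusted p = 0.20). Single cells held 21, 19, 7 and 1 of these UMIs. Without them Ccl7 was at 7.52 and 6.825 CPM in rejecting and 1.28 and 0.62 CPM in tolerized kidneys. B cell-like cells of the same kidneys had 4.09 and 1.83 CPM in rejecting and 0 and 0.90 CPM in tolerized kidneys, from 4, 3, 0 and 2 UMIs. In tolerized kidney 2 the level without the top cell was thus below that of B cell-like cells. Ccl2 was at 57.2 and 92.3 CPM against 29.8 and 43.4 CPM (-0.97, SE 0.30; edgeR adjusted p = 0.46). Both tolerized kidneys were below both rejecting kidneys for each.

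Ccl4 was at 300.1 and 282 CPM against 137 and 165 CPM, a log2 change of -0.86 (SE 0.22; edgeR adjusted p = 0.29), and Ccl3 at 87.2 and 109 CPM against 56.0 and 54.5 CPM (-0.74, SE 0.21; edgeR adjusted p = 0.39). For Ccl8 the values were 129 and 38.9 CPM against 26.2 and 5.57 CPM, while B cell-like cells of the same kidneys had 250.3, 28.7, 18.9 and 4.97 CPM. In CPM, Ccl8 in macrophage/monocyte-like cells thus did not stand clear of B cell-like cells in any graft. As UMIs, the class held 431, 120, 123 and 9 in 522, 508, 480 and 146 cells, in the same order. The main B cell-like cluster, led by Fcmr, held 225, 32, 30 and 8 in 391, 473, 406 and 218 cells, fewer per cell in each graft. Single macrophage/monocyte-like cells held 48, 24, 38 and 2 of these Ccl8 UMIs. Without rejecting kidney 2, 4 members passed in this class with edgeR (Ccl6, Ccl7, Ccl8 and Ccl9; 1.34% of all genes), and without rejecting kidney 1 only Ccl2 did (0.488%); a lone kidney is then assumed to vary as the others do.

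**Figure D3:**
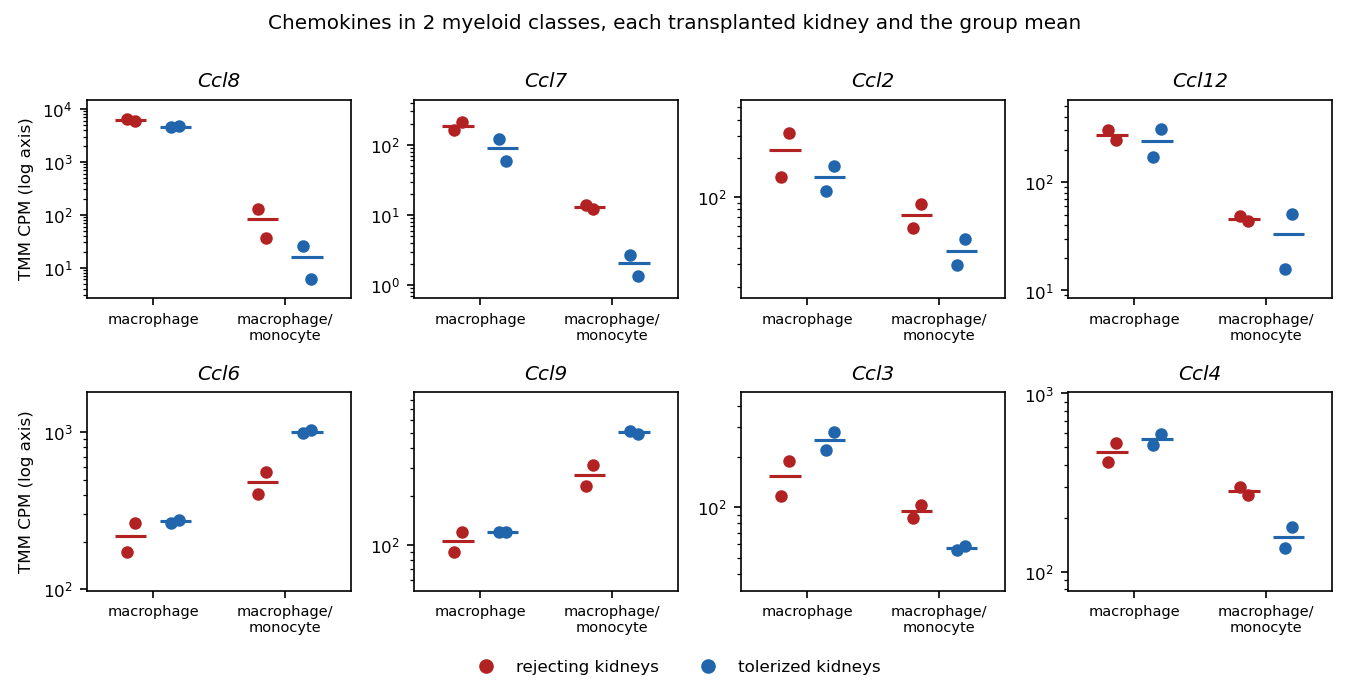
TMM-scaled CPM (log axis) of 8 chemokine genes in macrophage-like and macrophage/monocyte-like cells of each graft, with a line at each group mean. Ccl6 and Ccl9 lie higher in macrophage/monocyte-like cells of tolerized kidneys, and Ccl7 lies lower there in both classes.

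Over the 10 members in macrophage-like cells, 5 log2 fold changes were above 0 and 5 below, with a median of 0.08 (all genes: -0.01). Ccl7, Ccl8 and Ccl3 had an unadjusted p under 0.05 (6.02% of all genes did), none passed the adjusted threshold with edgeR (0% of all genes), and none with DESeq2 (0.357% of all genes). Of the members with such an unadjusted p, only Ccl3, a ligand of Ccr1, was higher in tolerized kidneys. It was at 119 and 195 CPM in rejecting and 220.5 and 264.5 CPM in tolerized kidneys (log2 fold change 0.71, SE 0.25; edgeR adjusted p = 0.74). In the Nlrp1b-led cluster alone the groups overlapped for Ccl3, at 70.9 and 51.8 against 51.5 and 63.6 CPM. Ccl5 also had both tolerized kidneys above both rejecting kidneys, but only in TMM-scaled CPM.

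Ccl6 in macrophage-like cells was at 175 and 274 CPM against 263 and 262 CPM, and Ccl9 at 91.6 and 124 CPM against 119 and 114 CPM, with overlapping groups. Naive macrophage-like cells had 385 and 880.1 CPM of Ccl3, and 560 and 1238 CPM of Ccl4 against 420 to 559 CPM in the grafts, but these levels lean on single cells. In naive kidney 1, 1 cell held 17 of 22 Ccl3 UMIs, and in naive kidney 2, 33 of 91. Without the cell of most UMIs in each kidney the naive levels were 91.8 and 574 CPM of Ccl3, against 116 to 243 CPM in the grafts, and 306 and 703 CPM of Ccl4, against 414 to 540 CPM, so naive kidney 1 then lay below every graft for both genes. With all cells, the pooled ratio of Ccl3 to naive kidneys was 0.225 (95% counting interval 0.187 to 0.274) in rejecting and 0.326 (0.271 to 0.397) in tolerized kidneys. In the Nlrp1b-led cluster alone Ccl3 was at 448 and 959 CPM in naive kidneys, against 70.9, 51.8, 51.5 and 63.6 CPM in the grafts. The single naive cells with 17 and 33 Ccl3 UMIs lay in this cluster, and its levels without them were not computed.

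Monocyte-like cells, led by Adgre4 of patrolling monocytes, had 6 testable members. Ccl4, Ccl5 and Ccl8 had an unadjusted p under 0.05, all lower in tolerized kidneys (5.21% of all genes had such a p). None passed the adjusted threshold with edgeR (0% of all genes), and Ccl4 passed with DESeq2 (0.174% of all genes). Ccl4 was at 327 and 228 CPM in rejecting and 109 and 59.0 CPM in tolerized kidneys, a log2 change of -1.68 (SE 0.33; edgeR adjusted p = 0.39; DESeq2 adjusted p = 0.0079; range over all alternatives 2.2e-05 to 0.56).

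Ccl8 in monocyte-like cells, at 185, 20.6, 15.2 and 4.81 CPM in rejecting kidneys 1 and 2 and tolerized kidneys 1 and 2, was below that of B cell-like cells of the same kidney in each graft. For Ccl5, 1 cell of rejecting kidney 2 held 18 of 58 UMIs, and without it the level was 55.3 CPM, below B cell-like cells. With all cells, Ccl5 was at 512, 79.5, 36.5 and 63.8 CPM. These levels were below B cell-like cells (560 CPM) in rejecting kidney 1 and above them (72.6, 21.4 and 19.9 CPM) in the others. Without rejecting kidney 2, or without tolerized kidney 2, both passed with edgeR (0.158% and 0.316% of all genes did), and with the replicate number as a block Ccl8 did (0.0581% of all genes). Ccl6, which marks myeloid cells, was at 424 and 534 CPM in rejecting and 649.5 and 466 CPM in tolerized monocyte-like cells, so the groups overlapped.

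Among lymphocytes, NK cell-like cells had the highest Ccl5, a chemokine stored with cytotoxic granules. Its level was 19049 and 19154 CPM in naive, 12861 and 10984 CPM in rejecting and 14369 and 16959 CPM in tolerized kidneys, and at least 97.4% of NK cell-like cells of every kidney held a Ccl5 UMI (unthinned). Tolerized kidneys lay above rejecting kidneys without overlap (log2 fold change 0.52, SE 0.26; edgeR adjusted p = 0.75, unadjusted p = 0.066). The naive levels rest on 8 and 13 cells.

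T cell-like cells had 6289 and 7409 CPM of Ccl5 in rejecting and 7325 and 5107 CPM in tolerized kidneys, with a log2 change of -0.01 (SE 0.28; edgeR adjusted p = 0.99). Naive T cell-like cells had 2114 and 3195 CPM, and the pooled ratio to naive kidneys was 2.51 (95% counting interval 2.28 to 2.76) for rejecting and 2.38 (2.17 to 2.62) for tolerized kidneys. In naive kidney 1, 1 cell held 98 of the 142 UMIs. Without the cell of most UMIs in each kidney the naive levels were 672 and 2437 CPM, and the ratio was not recomputed. The intervals cover counting error only. Within T cells, the cluster led by Tcrg-C2 had 9152, 9280, 7217 and 7763 CPM in the 4 grafts, and the Foxp3-led cluster 2498, 1742, 2842 and 2462 CPM. A Tox-led cluster, with 1627 of the 3300 T cell-like cells of rejecting kidney 1 and at most 90 in any other kidney, had 3557 CPM there. Ccl5 was thus lower in the Foxp3-led cluster than in the Tcrg-C2-led cluster of each graft.

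Macrophage-like cells of grafts also carried Ccl5, at 1037, 699.9, 1062 and 964 CPM, whereas naive ones had no UMI (at least 46.1-fold higher in rejecting and at least 55.8-fold higher in tolerized kidneys). B cell-like cells of the same grafts had 560, 72.6, 21.4 and 19.9 CPM, so the macrophage level was above that of B cell-like cells in each. Conventional dendritic cell-like cells had 1327, 1102, 2824 and 1190 CPM.

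Ccl3 and Ccl4 in NK cell-like cells differed more between replicates than between groups. Ccl4 was at 2773 and 1153 CPM in rejecting and 2336 and 1806 CPM in tolerized kidneys, and Ccl3 at 667 and 156 CPM against 315 and 310.5 CPM. Of the 4 members tested in NK cell-like cells (Ccl3, Ccl4, Ccl5 and Xcl1), none passed with edgeR (0.067% of all genes did), none had an unadjusted p under 0.05 (6.36% of all genes did) and none passed with DESeq2 (0.112% of all genes). Without rejecting kidney 1, Ccl3, Ccl4 and Ccl5 passed as higher in tolerized kidneys (log2 fold changes 1.14, 0.97 and 0.65; 1.37% of all genes passed). Without rejecting kidney 2, Ccl3 passed as lower (-0.93) and Ccl5 as higher (0.45), with a further member that was too low to be tested with all kidneys (4.46% of all genes passed), so the direction for Ccl3 rests on which rejecting kidney is used. Without tolerized kidney 1 or tolerized kidney 2, 1 member passed, which was likewise not tested with all kidneys (0.754% and 0.32% of all genes).

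T cell-like cells had 1122 and 942 CPM of Ccl4 in rejecting and 1023 and 642 CPM in tolerized kidneys, and 232, 203, 224 and 264 CPM of Ccl3. A single cell held 325 of the 1242 Ccl3 UMIs of tolerized kidney 2, and without the cell of most UMIs in each kidney the Ccl3 levels were 218, 177, 208 and 196 CPM (rejecting 1 and 2, tolerized 1 and 2), with overlapping groups. The highest level of both genes was in mast cell or basophil-like cells, led by Mcpt8, a basophil protease. These had 30939, 39690, 29374 and 43105 CPM of Ccl4 in 41, 27, 37 and 4 cells, and 15298, 23200, 18652 and 27178 CPM of Ccl3. The same cells had 9350, 9958, 12157 and 8502 CPM of Ccl6. Their Ccl9 was at 3973, 3899 and 3690 CPM in rejecting kidneys 1 and 2 and tolerized kidney 1. The order of rejecting and tolerized kidneys overlapped for all of these, and the class is too small for a test. A further unnamed cluster led by Gm49339 had 65 cells in naive kidney 2, with 8643 CPM of Ccl4, 3039 CPM of Ccl3 and no Ccl8 UMI. There it also had 422 CPM of Ccl12, 305 CPM of Ccl6 and 204 CPM of Ccl9. In naive kidney 1 it had 16 cells with 44 Ccl3 UMIs. The cluster is not counted in the naive macrophage-like levels and ratios, so these leave out its Ccl3, Ccl4 and Ccl12.

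Xcl1 was found in NK cell-like, T cell-like and cycling T cell-like cells. NK cell-like cells had 19 UMIs (1231 CPM) and 8 UMIs (308 CPM) in naive kidneys, 502 and 693 CPM in rejecting and 676 and 679.5 CPM in tolerized kidneys (log2 fold change 0.30, SE 0.28; edgeR adjusted p = 0.88). In naive kidney 1, 1 cell held 14 of the 19 UMIs. Without the cell of most UMIs in each kidney the naive levels were 374 and 204 CPM. T cell-like cells had 294 and 360.3 CPM in rejecting and 374 and 634 CPM in tolerized kidneys, without overlap (0.77, SE 0.30; edgeR adjusted p = 0.53, unadjusted p = 0.032). Cycling T cell-like cells are a class of their own that these values leave out. They had 886 and 158 UMIs (1026 and 262 CPM) in rejecting kidneys. In tolerized kidneys they had 112 and 504 UMIs (281 and 1152 CPM), so the groups overlapped there. The lack of overlap holds for T cell-like cells without this class.

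The difference in T cell-like cells was widest in the Tcrg-C2-led cluster, where Xcl1 was at 201 and 296 CPM in rejecting and 581 and 867 CPM in tolerized kidneys. The Tnfsf8-led cluster had 432 and 571 CPM against 308 and 749.6 CPM, so the groups overlapped there, and these clusters were not tested. After thinning to 1000 UMIs, 13.5% and 12.4% of T cell-like cells held an Xcl1 UMI in rejecting and 13.2% and 19.8% in tolerized kidneys (unthinned 17.8%, 20.8%, 25.3% and 32.4%, at medians of 1260, 2695, 4582 and 4766 UMIs). The thinned share in B cell-like cells was 0% to 2.06%. Of the 4 thinned shares, only that of tolerized kidney 2 was clearly above the rest, so the gap in CPM between the groups was not matched by the share of cells.

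Among the 9 members tested in T cell-like cells, 4 had an unadjusted p under 0.05 (8.74% of all genes did): Xcl1, higher, and Ccl2, Ccl8 and Ccl12, lower in tolerized kidneys. The last 3 had their main source in macrophage-like cells, and the macrophage markers summed in T cell-like cells, given above, were also lower in tolerized kidneys; their part in these values was not tested. None passed with edgeR (0% of all genes) or with DESeq2 (0.477%). Without rejecting kidney 2, or without tolerized kidney 2, Ccl8 and Ccl12 passed (0.852% and 0.627% of all genes did), and without tolerized kidney 1 Ccl8 did (2.07%), all lower in tolerized kidneys.

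**Figure D4:**
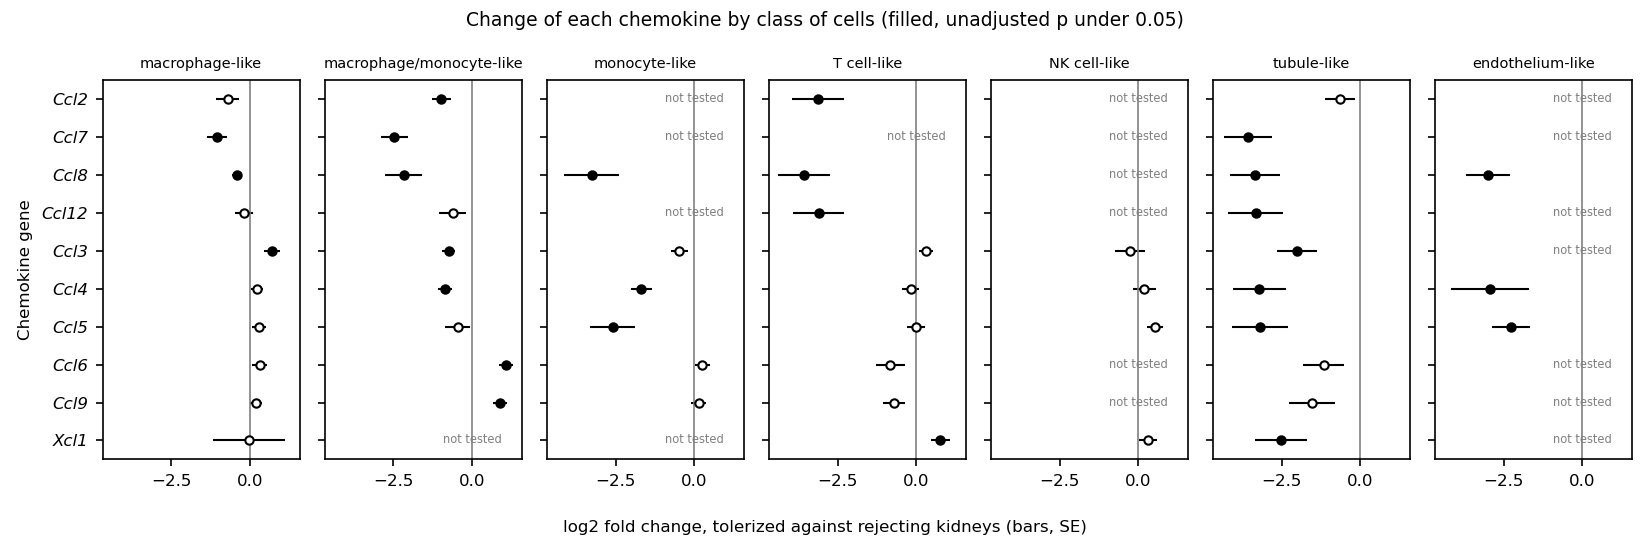
Log2 fold change of each member, tolerized against rejecting kidneys, in 7 cell classes, with bars of 1 standard error. Filled points had an unadjusted p under 0.05, and no point passed the adjusted threshold. The tubule-like and endothelium-like points are all below 0, while Ccl6 and Ccl9 are above 0 in macrophage/monocyte-like cells.

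In tubule-like cells every member was higher in rejecting than in naive kidneys: 10 of 10 passed with edgeR, where 18.3% of all 13839 genes tested were called higher and 33.4% in either direction. The median log2 fold change of the 10 was 5.14 (all genes: 0.01). In tolerized kidneys 2 of 10 passed, Ccl2 and Ccl8 (12.8% of all genes were called higher and 23.2% in either direction), with a median of 2.24 over the 10. With the replicate number as a block Ccl5 passed as well (25.8% of all genes in either direction). With DESeq2 Xcl1 passed as well (adjusted p = 0.028), where the share of all genes called is not given. Between tolerized and rejecting kidneys all 10 were below 0, with a median of -2.86 (all genes: 0.01). None passed with edgeR (0% of all genes), 7 had an unadjusted p under 0.05 (9.21% of all genes), and Ccl12 passed with DESeq2 (1.58% of all genes).

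The number of calls against naive kidneys depended on single kidneys. Without naive kidney 1, 3 members passed in rejecting kidneys (14.2% of all genes did), without rejecting kidney 1, 5 did (22.9%), and without naive kidney 2, 8 did (13.2%). In tolerized kidneys 1 passed without naive kidney 1, naive kidney 2 or tolerized kidney 1 (8.58%, 6.44% and 13% of all genes), and 4 passed without rejecting kidney 1 or rejecting kidney 2 (26.4% and 26.6%). Between tolerized and rejecting kidneys, 5 members passed without rejecting kidney 2 (Ccl4, Ccl5, Ccl8, Ccl12 and Xcl1; 1.43% of all genes), and all 5 were lower in rejecting kidney 2 than in rejecting kidney 1.

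Compared in CPM, most of these tubule-like values were no higher than those of B cell-like cells of the same kidney. Tubule-like cells had more UMIs per cell than B cell-like cells in each graft, which lowers their CPM. Counted as Ccl8 UMIs per cell, tubule-like cells were instead above the main B cell-like cluster, led by Fcmr, in each graft. For Ccl8 they held 2312 and 199 UMIs in 3874 and 1736 cells of rejecting kidneys. In tolerized kidneys they held 375 and 239 UMIs in 4495 and 3839 cells. The Fcmr-led cluster, which holds most B cell-like cells, had 225 and 32 UMIs in 391 and 473 cells of rejecting kidneys. In tolerized kidneys it had 30 and 8 UMIs in 406 and 218 cells. For Ccl5 the UMIs were 5283, 409, 881 and 666 in tubule-like cells of rejecting kidneys 1 and 2 and tolerized kidneys 1 and 2. In the Fcmr-led cluster they were 533, 62, 34 and 28. Per cell, tubule-like Ccl5 was nearly equal to that cluster in rejecting kidney 1 and above it in the other grafts. The order of tubule-like and B cell-like cells thus depends on the scale. Ccl8 in tubule-like cells was at 0 and 0.0485 CPM in naive, 117 and 15.9 CPM in rejecting and 8.02 and 4.14 CPM in tolerized kidneys, and B cell-like cells of the grafts had 250.3, 28.7, 18.9 and 4.97 CPM. Ccl5 was at 0.422 and 2.33 CPM in naive, 266 and 32.7 CPM in rejecting and 18.8 and 11.5 CPM in tolerized tubule-like cells, again below B cell-like cells in each graft. The order of the kidneys was the same in both classes.

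The summed level of macrophage markers in tubule-like cells was 9.92 and 15.6 CPM in naive, 291 and 85.1 CPM in rejecting and 47.2 and 21.2 CPM in tolerized kidneys, with all 8 detected in each kidney. That of 11 T cell markers was 3.06 and 2.33, 196 and 54.4, and 22.7 and 16.9 CPM, with 9 detected in naive kidneys and 11 in grafts. Genes induced by dissociation summed to 3596 and 3041, 7348 and 6160, and 5499 and 3657 CPM. The part of these markers in the tubule-like chemokine levels was not tested.

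A further measure is how Ccl12 UMIs were divided with those of Ccl8. In macrophage-like cells Ccl12 made up 4.39%, 4.05%, 3.59% and 6.20% of the UMIs of both genes in rejecting kidneys 1 and 2 and tolerized kidneys 1 and 2. In tubule-like cells it made up 3.55% (95% Wilson interval 2.88 to 4.36), 5.24% (2.95 to 9.14), 2.34% (1.24 to 4.39) and 6.28% (3.90 to 9.95), so the interval held the macrophage share of its kidney in 3 of 4 grafts and ended just below it in rejecting kidney 1. The tubule-like intervals rest on 85, 11, 9 and 16 Ccl12 UMIs, so all but the first are wide, and they cover counting error only. In macrophage/monocyte-like cells, whose Ccl8 did not stand clear of B cell-like cells in CPM, the shares were 27.4%, 54.0%, 37.9% and 89.3%. The share in B cell-like cells is not given. Where the tubule-like UMIs came from was not tested.

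**Figure D5:**
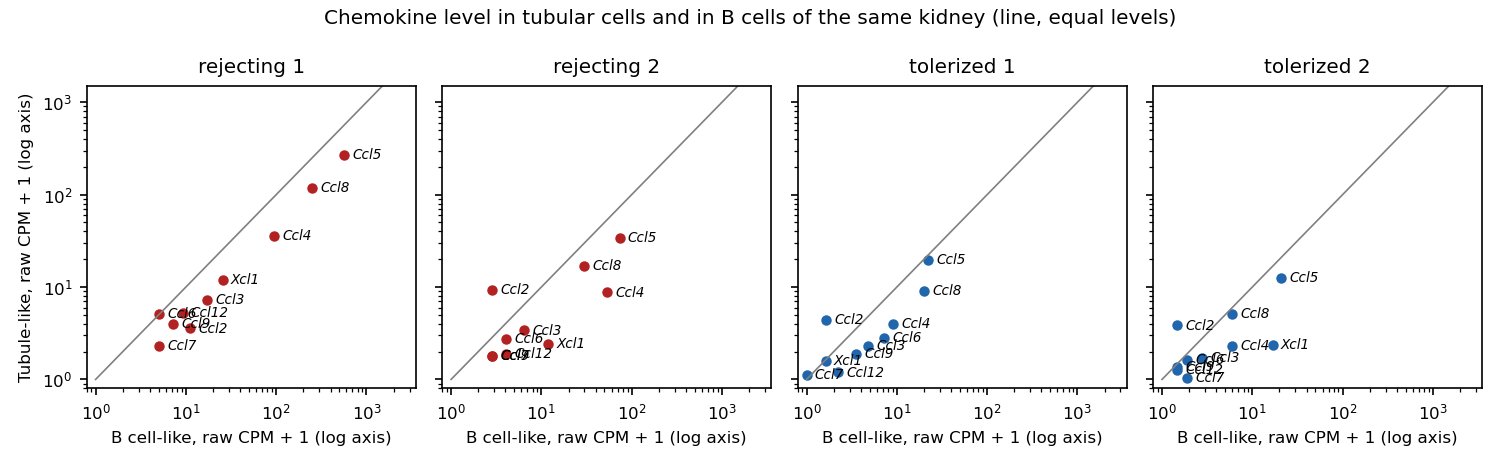
Level of each chemokine in tubule-like cells (vertical axis) against B cell-like cells (horizontal axis) of the same graft, as CPM + 1 on log axes, with the line of equality. Most points lie below the line, and Ccl2, with all cells counted, lies above it in 3 of the 4 grafts.

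Ccl2 differed when all cells were counted: its tubule-like level was then above that of B cell-like cells in 3 of 4 grafts. It was at 2.57 and 8.39 CPM in rejecting and 3.38 and 2.84 CPM in tolerized kidneys, with 51, 105, 158 and 164 UMIs. In 3 of these kidneys the UMIs were concentrated in single cells. The cell with the most held 1, 53, 132 and 157 of them, and without that cell the level was 2.52, 4.16, 0.556 and 0.121 CPM. That level was above B cell-like cells only in rejecting kidney 2, and the B cell-like levels rested on few UMIs. In tolerized kidneys a single proximal tubule-like cell thus carried most of the tubular Ccl2. Without it the level was still above that of naive kidneys (0.0352 and 0.0485 CPM, from 1 UMI each), and the test was not repeated without these cells. Stroma-like cells of rejecting kidney 2 showed the same pattern, with 135 of 154 Ccl2 UMIs in 1 of 17 cells.

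When segments of the nephron were fitted on their own, Ccl8 and Ccl4 passed between tolerized and rejecting kidneys in loop of Henle-like cells, where 0.538% of all genes were called. Ccl8 was at 137 and 29.2 CPM in rejecting and 8.56 and 4.84 CPM in tolerized kidneys, and fell by 3.69 on the log2 scale (SE 0.57; edgeR adjusted p = 0.023). Ccl4 was at 42.3 and 12.8 CPM against 3.80 and 0.869 CPM and fell by 3.75 (SE 0.62; edgeR adjusted p = 0.026). B cell-like cells of the same grafts had 94.0, 51.8, 8.17 and 4.97 CPM of Ccl4, above the loop of Henle-like level in each. For Ccl8 the loop of Henle-like level was below that of B cell-like cells in 3 grafts and 29.2 against 28.7 CPM in rejecting kidney 2.

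Endothelium-like cells, which line the vessels that leukocytes cross, had enough UMIs for 3 members. Ccl8 and Ccl5 passed in rejecting against naive kidneys and Ccl5 in tolerized kidneys (7.59% and 6.26% of all 8601 genes were called higher, and 14.6% and 11.7% in either direction). Ccl5 was at 1.36 and 1.12 CPM in naive, 247 and 41.4 CPM in rejecting and 40.9 and 21 CPM in tolerized kidneys, where B cell-like cells of the grafts had 560, 72.6, 21.4 and 19.9 CPM. Without naive kidney 2 neither gene passed in rejecting kidneys (3.15% of all genes did), and without rejecting kidney 1 only Ccl5 did (6.01%). In tolerized kidneys Ccl5 did not pass without naive kidney 1 or naive kidney 2 (3.03% and 1.58% of all genes did). Both genes passed there without rejecting kidney 2 (12.1%), and Ccl5 with a member not tested with all kidneys without tolerized kidney 2 (13.9%). Between tolerized and rejecting kidneys none of the 3 passed with edgeR (0% of all genes) or DESeq2 (0.221%), all 3 had an unadjusted p under 0.05 (6.67% of all genes), and Ccl8 and Ccl5 passed without rejecting kidney 2 (0.126%) and Ccl5 without tolerized kidney 1 (0.746%).

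Summed over all kept cells of a kidney, all 10 members passed as higher in rejecting than in naive kidneys (29.4% of all 15732 genes were called higher and 57.2% in either direction) and 8 in tolerized kidneys, all but Ccl3 and Ccl4 (19% of all genes were called higher and 32.1% in either direction). With DESeq2 Ccl3 passed in tolerized against naive kidneys too (adjusted p = 0.014). The share of all genes called in that fit is not given. In a sum over all kept cells, more cells of a class and more RNA per cell cannot be told apart, and grafts held many more leukocytes. Ccl8 went from 0 and 0.0437 CPM in naive to 1563 and 1721 CPM in rejecting and 782.5 and 216 CPM in tolerized kidneys, and Ccl2 from 0.761 and 0.481 to 39.3 and 110.0 and to 24.2 and 11.4 CPM. Tolerized kidneys lay below rejecting kidneys for both, with log2 fold changes of -1.66 (SE 0.54; edgeR adjusted p = 0.14) and -2.0 (0.52; edgeR adjusted p = 0.13).

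No member passed between tolerized and rejecting kidneys over all kept cells with edgeR (0% of all genes), 4 had an unadjusted p under 0.05 (26.4% of all genes), and DESeq2 called Ccl2 and Ccl8 (11.5% of all genes). The rejecting kidneys held 1242 and 1277 macrophage-like cells, the tolerized ones 1011 and 307. Without tolerized kidney 1, Ccl7 and Ccl8 passed (8.23% of all genes did). In rejecting against naive kidneys 8 passed without rejecting kidney 1 or rejecting kidney 2 (47% and 42% of all genes did). In tolerized kidneys 4 passed without naive kidney 1 and 10 without naive kidney 2 (10.5% and 12.4%), and Ccl12 did not pass with the replicate number as a block (7 did, and 26.2% of all genes).

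The receptors of these ligands did not pass between tolerized and rejecting kidneys in any of the 7 classes: 0 of 6 tested passed in macrophage-like and 0 of 10 in T cell-like cells. Ccr2 in macrophage/monocyte-like cells was at 711 and 771 CPM in rejecting and 993 and 973 CPM in tolerized kidneys (TMM-scaled, as are the receptor values that follow). Ccr8 in T cell-like cells was at 17.1 and 14.9 against 9.58 and 11.8 CPM. The groups did not overlap for Ccr2 or Ccr8 in these classes, but neither change passed. The share of all genes whose groups did not overlap is not given, so the lack of overlap cannot be weighed.

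Over all kept cells, 11 of 13 receptors tested were higher than naive in rejecting kidneys and 11 of 13 in tolerized kidneys (29.4% and 19% of all genes were), among them Xcr1, the receptor of Xcl1 (log2 fold changes 7.08 and 6.12) and Ccr2 (4.35 and 3.71). Of 12 other CC chemokine genes, 7 were tested over all kept cells, and 5 were higher and 1 lower in rejecting and also in tolerized kidneys, against the same shares of all genes called higher. The lower one was Ccl27a, whose near-identical copies can divide its reads, so its value is uncertain. In tubule-like cells Ccl28, an epithelial chemokine, rose by 2.88 (SE 0.39) in rejecting and 2.86 (0.39) in tolerized kidneys on the log2 scale (edgeR adjusted p = 0.0016 and 0.0020).

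Of 19 genes of interferon and NF-kB signalling, which are known to induce chemokines, 17 were tested in tubule-like cells. In rejecting kidneys 15 passed as higher than naive, and in tolerized kidneys 10 passed as higher and 1 as lower, where 18.3% and 12.8% of all genes passed as higher. Irf1 rose by 3.45 and 2.80, and Relb by 2.77 and 2.15 in rejecting and tolerized kidneys, on the log2 scale (edgeR adjusted p at most 0.0032 for each). None of the 17 passed between tolerized and rejecting kidneys, where their median was -0.71. Genes induced by dissociation, 16 in all, passed as higher in 5 cases in rejecting kidneys, and as higher in 1 and lower in 1 in tolerized kidneys.

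The genes whose pattern was most like that of each member were sought over 87 sums of a class in a kidney, which share kidneys, libraries and free RNA. By Pearson's r of log2(CPM + 1), Ccl8 was most like C1qa (0.817), Ccl12 like Kcnk13 (0.880), Ccl2 like Trem2 (0.823) and Ccl7 like Gm15056 (0.902). Ccl3 and Ccl4 were most like each other (0.933), and Ccl9 was most like Ccl6 (0.863), whose own closest gene was Igsf6 (0.945). Ccl5 was most like Klrk1 (0.896), and Xcl1 like Ifng (0.964). The chromosomal neighbours Ccl8 and Ccl12 had an r of 0.626.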

How the data were processed

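Kidneys were dissociated and sequenced with the 10x Genomics droplet method. The deposited files are raw UMI counts per gene and cell that the authors made with Cell Ranger (version 3.0.1 per the file headers of the grafts) on mm10, with 28692 genes listed for naive kidneys and 31053 for grafts; only shared genes were used. A cell needed 500 UMIs, 250 detected genes and a mitochondrial share of 50% or less, and the highest Scrublet scores were removed as doublets, up to 0.8% per 1000 barcodes. Cells were clustered with scanpy 1.11.5 (Leiden, resolution 1.5, 2500 variable genes, 40 components, 20 neighbors) without the chemokines, and clusters were named from marker genes by thresholds chosen after the clusters were seen. Counts were summed per kidney and class and tested in R 4.3.3 with edgeR 4.0.16 (quasi-likelihood, TMM, filterByExpr, Benjamini-Hochberg adjusted p under 0.05), over all genes tested; DESeq2 1.42.0 was an alternative. Leukocyte classes were fitted on grafts only, and tubule-like, endothelium-like and all kept cells on the 6 kidneys. The scripts were tested on simulated data. Counting intervals and floors (3 UMIs over the group) cover counting error only. The study ran 2 experiments with 1 kidney of each group in each, but the labels do not say whether replicate numbers follow them, so the replicate block is an alternative. P-values measure only the spread between these kidneys. Genes named beside the members were the 1 most alike by Pearson's r. The members and gene lists were chosen with earlier results of these data known.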

Additional observations from a re-analysis of the deposited data

Results flagged for a closer look

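Some members moved in opposite directions in different cell classes between tolerized and rejecting kidneys, with both kidneys of one group above both of the other in TMM-scaled CPM. In none of these was the difference between classes tested, and no single change passed the adjusted threshold with edgeR. Ccl3 was higher in tolerized kidneys in macrophage-like (log2 fold change 0.71) and T cell-like cells (0.31), and lower in macrophage/monocyte-like (-0.74), monocyte-like (-0.47) and tubule-like cells (-2.02). Ccl5 was higher in macrophage-like (0.30) and NK cell-like cells (0.52), and lower in monocyte-like (-2.59), tubule-like (-3.20) and endothelium-like cells (-2.28). Ccl9 was higher in macrophage/monocyte-like (0.88) and lower in T cell-like cells (-0.70). T cell-like cells held only 54 and 73 Ccl9 UMIs in rejecting and 51 and 17 in tolerized kidneys. Of those 17, 1 cell held 10. Tubule-like and endothelium-like cells are not a main source of Ccl3 or Ccl5. In CPM, tubule-like Ccl5 was below B cell-like cells in each graft, and endothelium-like Ccl5 was below them in the rejecting kidneys. The share of all genes whose groups did not overlap is not given. Without TMM scaling the groups overlapped for Ccl3 in T cell-like and Ccl5 in macrophage-like cells. For Ccl3 in T cell-like cells, 1 cell of tolerized kidney 2 held 325 of its 1242 UMIs, and its level fell from 264 to 196 CPM without that cell.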

How the results depend on the processing

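Of 1390 log2 fold changes recomputed under alternatives, 1247 kept direction and side of the threshold, 39 lost and 77 gained a call, and 27 changed sign, 19 of these when 1 kidney was left out. Only that of Ccl3 in NK cell-like cells without rejecting kidney 1 (1.14) changed sign with a call. In what follows, changes are tolerized against rejecting unless stated. The share of all genes called in the same fit follows each count. With no filter on low counts, members called were 2 in macrophage-like (1.73%), 7 in macrophage/monocyte-like (1.64%), 4 in monocyte-like (0.653%), 1 in NK cell-like (0.394%), 7 in tubule-like (3.54%) and 3 in endothelium-like cells (1.05%), and against naive kidneys 5 in tubule-like (22%) and 3 in endothelium-like cells (11.6%) of tolerized kidneys. With DESeq2 they were 1 in macrophage/monocyte-like (0.301%), 1 in monocyte-like (0.174%) and 1 in tubule-like cells (1.58%), 2 over all kept cells (11.5%), and 2 in endothelium-like cells of tolerized against naive kidneys (7.51%). For tolerized against naive kidneys DESeq2 further called Xcl1 in tubule-like cells and Ccl3 over all kept cells, with shares not given. With doublets kept they were 1 in NK cell-like cells (0.122%), 4 in tubule-like (24.6%) and 0 in endothelium-like cells (11.6%) of tolerized against naive kidneys, and 4 in endothelium-like cells (21.6%) of rejecting against naive kidneys.

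No label says that replicate numbers pair kidneys, and correlations of same-numbered deviations ran from -0.24 to 0.31. The replicate block gave 1 call in monocyte-like cells (0.0581%), 3 in tubule-like cells (25.8%) and 7 over all kept cells (26.2%, both tolerized against naive), and turned Ccl3 in NK cell-like cells to 0.0078.

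Leaving out 1 kidney gave, between tolerized and rejecting kidneys, 0 to 4 calls in macrophage/monocyte-like (0.0205% to 1.34%), 0 to 2 in monocyte-like (0% to 0.316%), 0 to 2 in T cell-like (0% to 2.07%), 1 to 3 in NK cell-like (0.32% to 4.46%), 0 to 5 in tubule-like (0% to 1.43%) and 0 to 2 in endothelium-like (0% to 0.746%) and all kept cells (0% to 8.23%). Against naive kidneys it gave 3 to 10 calls in tubule-like (13.2% to 31.6%), 0 to 2 in endothelium-like (3.15% to 18.5%) and 8 to 10 over all kept cells (33% to 55.8%) for rejecting kidneys, and 1 to 4 (6.44% to 26.6%), 0 to 2 (1.58% to 13.9%) and 4 to 10 (10.5% to 30.3%) for tolerized kidneys.

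Sign changes with 1 kidney left out, with the range over the kidneys left out, were as follows. In macrophage-like cells they were Ccl12 (-0.68 to 0.18, without tolerized 1), Ccl9 (-0.00355, without rejecting 1, to 0.41) and Xcl1 (-2.46 to 2.23 without rejecting 1 and 1.16 without tolerized 1). In macrophage/monocyte-like cells they were Ccl12 (-1.55 to 0.12, without tolerized 1) and Ccl5 (-0.97 to 0.35, without rejecting 1). Others were Ccl9 in monocyte-like cells (-0.0453, without tolerized 1, to 0.30), Ccl4 in T cell-like cells (-0.55 to 0.11, without tolerized 2), Ccl5 there (-0.30 to 0.21 without tolerized 2 and 0.17 without rejecting 2), and, in NK cell-like cells, Ccl3 (-0.93 to 1.14) and Ccl4 (-0.27, without rejecting 2, to 0.97). Ccl2 in tubule-like cells ran from -1.26 to 0.39 (without rejecting 2), and Ccl4 there, tolerized against naive, from -0.54 (without naive 1) and -0.32 (without tolerized 1) to 2.11. Ccl4 in endothelium-like cells ran from -1.92 (without rejecting 1) to 7.33 for rejecting and from -3.02 to 4.46 (without naive 2) for tolerized against naive kidneys. Its naive level there rests on 1 cell of naive kidney 2, which held all 18 UMIs, and naive kidney 1 had none. Over all kept cells and without tolerized 2, Ccl6 (-1.30 to 0.26) and Ccl9 (-1.40 to 0.0843) changed sign.

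Other sign changes were Xcl1 in macrophage-like cells with DESeq2 (0.25), at most 20% mitochondrial UMIs (0.13), at least 1000 UMIs (0.0911) and without the macrophage cluster of fewest UMIs (0.31, chosen after seeing the data). Ccl9 in monocyte-like cells at resolution 0.8 was -0.00868, Ccl4 in endothelium-like cells with doublets kept 1.06 (tolerized against naive), and Xcl1 over all kept cells at most 20% mitochondrial 0.0863. Resolution 0.8 gave no macrophage/monocyte-like class, so no value. The cause of these changes was not tested. Naive leukocytes, at most 40 cells in the T cell-like and macrophage-like classes, limit every ratio to naive kidneys.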
